A study of Rattus norvegicus with 6 samples.

Results

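Genes of iron uptake, storage and export were examined in primary rat microglia that received lipopolysaccharide (LPS, an outer membrane molecule of Gram-negative bacteria) with or without siponimod, a modulator of sphingosine-1-phosphate receptors used in multiple sclerosis. The set was chosen by name and comprised 10 listed genes, namely Tfrc, Steap3, Slc11a2, Slc11a1, Lcn2, Fth1, Ftl1, Slc40a1, Aco1 and Ireb2. Of these, 9 had a row among the 23139 genes of the count tables, and they gave 11 rows, because Ftl1 was listed only as 3 numbered rows (Ftl1_1, Ftl1_2 and Ftl1_3). Slc40a1, which encodes the iron exporter ferroportin, was not analysed here.

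Microglia came from cortices of Wistar rats at postnatal day 1, were shaken off mixed glial cultures and were purified with magnetic beads against CD11b/c. All 6 libraries came from cells given 100 ng/mL LPS, and the groups differed in what was added with it: the solvent dimethyl sulfoxide (group LPS) or 50 µM siponimod (group LPS/siponimod), with 3 biological replicates each. Cells without LPS are not among these libraries, so each value compares LPS/siponimod with LPS and none gives the effect of LPS itself. Messenger RNA was sequenced, and total read counts per gene were 39484979, 38301365 and 38080379 in LPS replicates 1, 2 and 3 and 46643859, 43336006 and 38857441 in LPS/siponimod replicates 1, 2 and 3.

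Cells take up iron bound to transferrin through the transferrin receptor, whose vesicles hold a reductase that converts the iron and a transporter that passes it to the cytosol. Iron that is not used is stored in ferritin, a shell built of heavy and light chains, and leaves the cell through ferroportin with the help of a copper-containing oxidase. Iron regulatory proteins bind hairpins in the messenger RNAs of these genes when iron is scarce, which stabilises the receptor's messenger RNA and blocks translation of ferritin. Ferritin protein can therefore change without its messenger RNA, and only the latter was measured. Inflammatory activation is known to shift microglia and macrophages towards holding iron inside the cell.

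Levels are given as CPM (counts relative to the library total, scaled by the TMM factors of edgeR) and differences as log2 fold changes (FC) of LPS/siponimod against LPS from edgeR's quasi-likelihood test, with their standard errors (SE). A gene was called at a Benjamini-Hochberg adjusted p of at most 0.05 over the 11977 genes tested and a fold change of at least 1.5. CPM is not corrected for gene length, so that levels are compared between libraries and not between genes. Libraries of the same replicate number were treated as pairs because they deviated together in these data. The sources used do not state a pairing. Where adding that number to the fit as a block changed a call, its value is given as the blocked value.

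LPS replicate 3 stood apart from the other LPS libraries, and both libraries numbered 3 held more summed counts of oligodendrocyte lineage and neuron markers than the others of their group. Summed marker levels are CPM of the library totals, without TMM scaling. The correlation of log CPM over genes was 0.983 between LPS replicates 1 and 2, but 0.935 and 0.945 between LPS replicate 3 and each of them. In the LPS/siponimod group the spread was smaller, with 0.973 between replicates 1 and 2 and 0.966 and 0.956 between replicate 3 and each of them. Markers of the oligodendrocyte lineage summed to 5.01, 5.4 and 35.2 CPM across the LPS libraries and to 11.3, 10.6 and 23.8 CPM across the LPS/siponimod libraries. Of these 8 markers, Mbp was the most abundant over all libraries. It did not follow the sum under LPS, with 149, 161 and 84 counts, and had 470, 397 and 652 under LPS/siponimod. Olig1, a transcription factor of that lineage, had 1, 5 and 515 counts under LPS and 2, 3 and 17 under LPS/siponimod. Neuron markers (6 genes, Tubb3 the most abundant) summed to 1.60, 1.04 and 11.1 CPM under LPS and to 4.35, 6.02 and 16.0 CPM under LPS/siponimod. Within each condition both lists were highest in the library numbered 3, and all comparisons were also made without these 2 libraries, an alternative chosen after seeing the data.

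Microglia markers were present in every library. Their summed CPM exceeded that of each other list, but these sums are not corrected for gene length or list size. All 10 had counts, with Csf1r, the receptor of a microglial growth factor, as the most abundant, and they summed to 6728, 5999 and 3875 CPM under LPS and to 2487, 3665 and 2057 CPM under LPS/siponimod. Aif1, Itgam and Cx3cr1 were called lower in LPS/siponimod and none of the 10 higher, with a median log2 FC of -1.12. In bulk libraries, fewer cells of a type and less RNA per cell cannot be told apart. Astrocyte markers (8 of 8 with counts, Slc1a3 the most abundant) summed to 39.9, 21.3 and 23.7 CPM under LPS and to 27.5, 27.7 and 62.4 CPM under LPS/siponimod. Fibroblast, pericyte and endothelial markers (7 of 8 with a row, Pecam1 the most abundant) summed to 40.2, 109.7 and 22.9 CPM under LPS and to 15.7, 25.6 and 16.1 CPM under LPS/siponimod. Neutrophil markers summed to 221, 204 and 76.8 CPM under LPS and to 23.5, 55.4 and 6.46 CPM under LPS/siponimod, nearly all of it Csf3r (log2 FC -2.65, adjusted p = 0.0570), while Elane, Mpo and Prtn3, the granule enzymes that define neutrophil precursors, were at 0 in every library. Of the markers of other cells, Mbp (log2 FC 1.74, adjusted p = 0.0172) and Dcn (3, 0 and 4 counts against 456, 49 and 178, adjusted p = 0.0155) were called higher and none lower. The part of these marker changes in the results on iron genes was not tested.

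Of the iron genes, the transferrin receptor Tfrc and the iron transporter Slc11a2 fell in LPS/siponimod, and no row rose in the fit without a block. Among the 10 rows tested, 0 were called higher and 2 lower, whereas 13.6% of all genes tested were called higher, 11.7% lower and 25.3% in either direction. With so few rows, the share called, 20% lower, is not set apart from that background. The median log2 FC of the 10 rows was -0.54, compared with -0.02 for all genes, with 7 rows below 0 and 3 above. The groups did not overlap in 3 of the 10 rows (Tfrc, Slc11a2 and Steap3), against 49.3% of all genes tested. The remaining row, Ftl1_3, had between 2 and 19 counts per library and was removed by the filter on low counts. At an unadjusted p under 0.05 there were 0 rows higher and 4 lower of 10, against 22% and 21.7% of all genes tested. With the replicate block, the calls were 1 row higher (Ftl1_2) and 5 lower, which is described after the single genes.

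**Figure D1:**
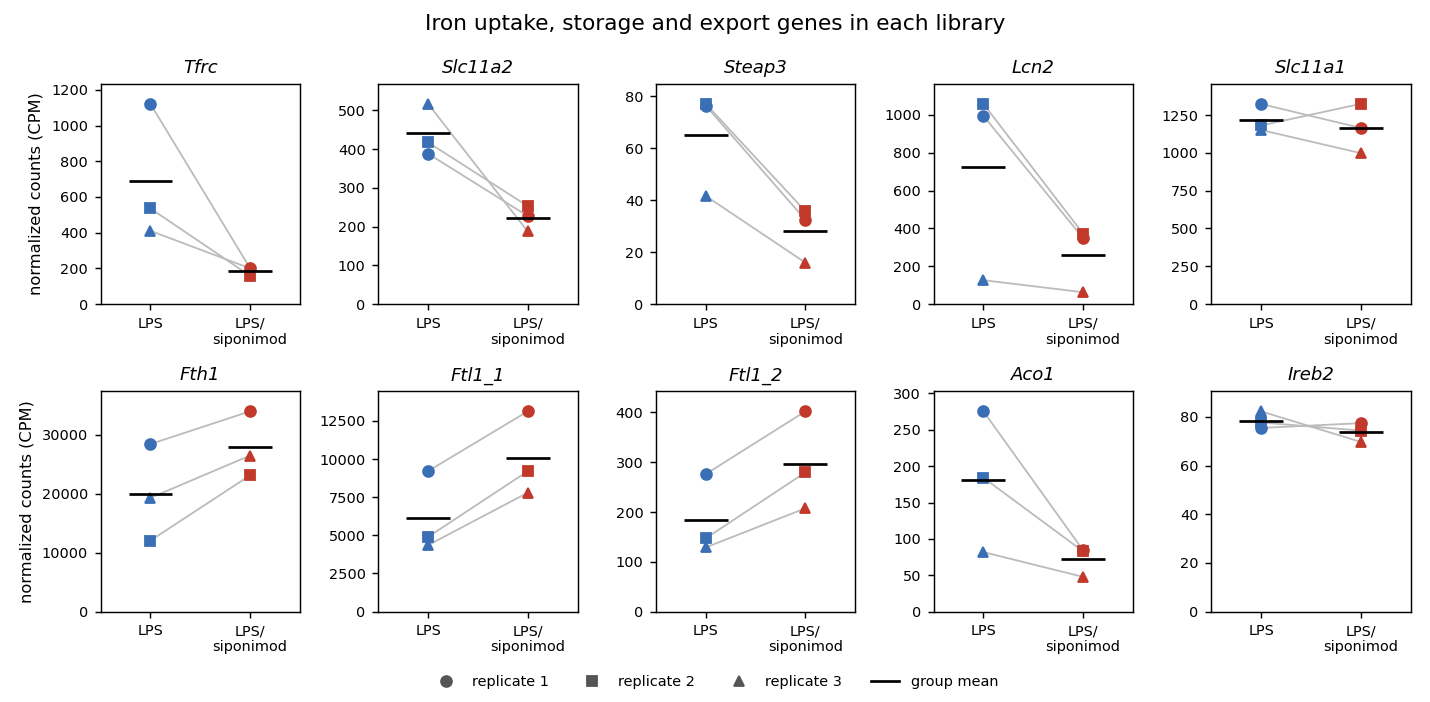
Normalized counts (CPM, linear axes starting at 0) of each tested iron gene in the 6 libraries, with LPS in blue and LPS/siponimod in red, replicate numbers as symbols, lines joining libraries of the same number and bars at the group means. Tfrc, Slc11a2 and Steap3 have no LPS/siponimod library above an LPS library, while the 3 ferritin rows are higher in LPS/siponimod in every pair with overlapping groups.

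Uptake of transferrin-bound iron was examined first. Tfrc, the receptor that binds and internalises transferrin, had 1121, 536 and 410.4 CPM in LPS replicates 1, 2 and 3 and 201, 159 and 200.2 CPM in LPS/siponimod replicates 1, 2 and 3. Every LPS library lay above every LPS/siponimod library, and the LPS libraries, led by replicate 1, were much more spread. The mean decreased from 689 ± 379 to 187 ± 24.2 CPM (SD, n = 3), a log2 FC of -1.88 (SE 0.40, adjusted p = 0.0204) with a 95% interval from -2.85 to -0.92, or 3.69-fold lower. Within pairs the log2 differences were -2.48, -1.75 and -1.04. The call was lost without LPS replicate 2 (adjusted p = 0.0621) and without LPS/siponimod replicate 1 (adjusted p = 0.0859), 2 (adjusted p = 0.0552) or 3 (adjusted p = 0.0703), with a log2 FC between -2.15 and -1.33 over all 6 fits that left out 1 library.

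Slc11a2, the transporter that moves ferrous iron out of endosomes and that is also known as DMT1, had 388, 417 and 517 CPM across the LPS libraries and 228, 253 and 188 CPM across the LPS/siponimod libraries. Replicate 3 was the highest library of the LPS group and the lowest of the other group, and no libraries overlapped. Its mean decreased from 441 ± 67.4 to 223 ± 33.0 CPM (SD, n = 3), with a log2 FC of -0.99 (SE 0.18, adjusted p = 0.0151, 95% interval -1.43 to -0.54), that is 1.98-fold lower. All 3 pairs had a lower value with siponimod, by -0.77, -0.72 and -1.46 on the log2 scale. The call was lost without LPS replicate 2 (adjusted p = 0.0594), LPS/siponimod replicate 1 (adjusted p = 0.0716) or LPS/siponimod replicate 3 (adjusted p = 0.0598).

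The sequences around the starts of the called genes, and of the inflammation-responsive Lcn2, are shown to place the results next to their promoters. They were taken from RefSeq windows of 250 bases before and 50 bases after each start (build GRCr8, a later assembly than that used for counting). These covered 6 of the 9 genes with 7 windows, as Slc11a2 has 2 annotated starts. Fth1, Ftl1 and Slc11a1 had no window. Each run is written 5′ to 3′ on the gene's own strand, which is the minus strand for all of them. Capitals mark the matches named after the runs, and the Slc11a2 runs, which are the 60 bases before each of its starts, hold none. Its starts are numbered by coordinate, so on the minus strand the second start lies upstream of the first.
Tfrc (chr11:81690309-81690369): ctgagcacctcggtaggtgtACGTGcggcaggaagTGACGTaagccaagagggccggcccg
Slc11a2, first start (chr7:133417789-133417848): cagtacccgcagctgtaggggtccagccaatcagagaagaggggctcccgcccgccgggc
Slc11a2, second start (chr7:133418940-133418999): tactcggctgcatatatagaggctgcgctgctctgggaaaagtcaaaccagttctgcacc
Lcn2 (chr3:36081993-36082030): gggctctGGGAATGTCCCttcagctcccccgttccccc

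In the Tfrc run, whose first base is at -51 from the start, the first capitals are the core of the hypoxia response element (ACGTG). The second are only a part of the cAMP response element (TGACGT). These letters occur on either strand in 19.2% and 7.94% of all 33469 windows, and of the 7 windows of iron genes only that of Tfrc holds either. The Lcn2 run begins at -250, and its capitals hold an NF-kB-like motif (GGGA, any 3 bases, then TCC) that matches on both strands in overlapping positions. This motif is in 4.09% of all windows and in 1 of the 7. The core of the antioxidant response element (TGACNNNGC) was in 12.1% of all windows and 0 of the 7. An iron-responsive element (loop CAGTGN on a paired stem, sense strand, after the start only) was in 2 of all windows and 0 of the 7. The ferritin genes had no window, and only 50 bases after each start were read. This search therefore cannot show whether the iron genes carry that element. All motifs given are matches of letters within these windows, and those other than the last 2 were chosen after the windows had been read. Counts per gene do not separate the starts of Slc11a2, so the decrease cannot be assigned to one of them.

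Steap3, the reductase that converts ferric to ferrous iron in the same endosomes, had 76.4, 77.0 and 41.6 CPM under LPS and 32.4, 35.7 and 16.0 CPM under LPS/siponimod. Replicate 3 was the lowest library of both groups, and the groups did not overlap. The log2 FC of -1.21 (SE 0.37, adjusted p = 0.0544, 95% interval -2.12 to -0.31) did not pass the threshold. Within pairs the differences were alike, at -1.23, -1.11 and -1.38. The blocked log2 FC was -1.24 and was called lower (adjusted p = 0.00552). It was also called without LPS replicate 3 (adjusted p = 0.0284) and without both libraries numbered 3 (adjusted p = 0.0295), the adjusted p ranging from 0.00552 to 0.172 over all alternatives.

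Iron can also enter by other routes. Lcn2 (lipocalin 2) is a secreted protein that binds bacterial siderophores and is a known product of LPS-activated glia. It had 995, 1058 and 126 CPM across the LPS libraries and 349, 373 and 62.9 CPM across the LPS/siponimod libraries, so that LPS replicate 3 lay below 2 of the LPS/siponimod libraries and the groups overlapped. The log2 FC of -1.47 (SE 0.93, adjusted p = 0.265, 95% interval -3.72 to 0.77) did not pass the test. Within pairs the differences were -1.51, -1.51 and -1.01, and the blocked log2 FC of -1.34 was called lower (adjusted p = 0.00815, 95% interval -1.80 to -0.89). Without both libraries numbered 3 the log2 FC was -1.50 (adjusted p = 0.0317), and over all alternatives the adjusted p ranged from 0.00815 to 0.524. In both conditions replicate 3 was the lowest library, and Lcn2 was lower with siponimod in 3 of 3 pairs.

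Slc11a1 (NRAMP1), which pumps metal ions out of the phagosome in macrophages and microglia, had 1323, 1181 and 1151 CPM under LPS and 1165, 1324 and 998 CPM under LPS/siponimod. The groups overlapped, and the pairs went both ways (-0.18, 0.17 and -0.21). Its log2 FC was -0.07 (SE 0.18, adjusted p = 0.795), and a change of 1.5-fold in either direction lies outside its 95% interval from -0.50 to 0.36. The difference between the log2 FC of Slc11a1 and that of its relative Slc11a2 was not tested.

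The iron store was described by the ferritin genes. Fth1, the heavy chain that oxidises incoming iron, had 1053154, 464202 and 716873 counts under LPS and 1578670, 1031583 and 1085468 under LPS/siponimod. It held 2.67, 1.21 and 1.88% of all counts in libraries of the LPS group and 3.38, 2.38 and 2.79% in those of the other. By counts, not corrected for length, it ranked 1, 3 and 1 under LPS and 1, 1 and 2 under LPS/siponimod among all genes. Despite this depth, the difference was within the spread of the replicates: means were 19923 ± 8204 and 27855 ± 5563 CPM (SD, n = 3), with a log2 FC of 0.48 (SE 0.39, adjusted p = 0.377, 95% interval -0.46 to 1.43). Fth1 was higher with siponimod in 3 of 3 pairs (0.26, 0.94 and 0.46), and the blocked value was not called either (0.55, adjusted p = 0.204).

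Ftl1, the light chain that supports formation of the iron core, gave most of its counts to the row Ftl1_1, with 341264, 188581 and 161785 counts under LPS and 610040, 410769 and 319584 under LPS/siponimod. LPS replicate 1 was higher than LPS/siponimod replicates 2 and 3 after scaling, so that the groups overlapped. The log2 FC was 0.71 (SE 0.38, adjusted p = 0.204, 95% interval -0.22 to 1.64), with pairs at 0.51, 0.91 and 0.84 and a blocked value of 0.75 (adjusted p = 0.0599). By rank of counts Ftl1_1 was at 7, 10 and 14 under LPS and at 3, 5 and 4 under LPS/siponimod.

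The row Ftl1_2 had 10231, 5669 and 4787 counts under LPS and 18690, 12478 and 8506 under LPS/siponimod. This amounted to between 2.66 and 3.06% of Ftl1_1 in every library. Reads of near-identical copies may be divided between these rows, and how this was handled is not stated, so the value of Ftl1_2 is uncertain as that of a separate gene. Its log2 FC of 0.69 (adjusted p = 0.203) was not called, while the blocked value of 0.72 was called higher (adjusted p = 0.0181, between 0.0181 and 0.539 over all alternatives). Ftl1_3 had 9, 4 and 2 counts under LPS and 19, 14 and 8 under LPS/siponimod, and Fthl17a, another gene with a ferritin name, had 0 counts in every library.

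All rows with a ferritin name together held 3.56, 1.72 and 2.32% of the counts under LPS and 4.73, 3.36 and 3.64% under LPS/siponimod. Every LPS/siponimod library except replicate 2 exceeded every LPS library. The ratio of Fth1 to Ftl1_1 counts, which is free of library size, was 3.09, 2.46 and 4.43 under LPS and 2.59, 2.51 and 3.40 under LPS/siponimod. On the log2 scale it was 1.69 ± 0.43 and 1.49 ± 0.24 (SD, n = 3), a difference of -0.20 with p = 0.7 in a two-sided exact permutation test, for which 0.10 is the smallest p possible with this design. LPS replicate 3 had the highest ratio, and the difference was 0.03 without it.

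Of the regulators, Aco1 encodes the iron regulatory protein 1, which acts as a cytosolic aconitase when it carries an iron-sulphur cluster. It had 275, 184 and 81.9 CPM under LPS and 84.5, 82.9 and 47.8 CPM under LPS/siponimod. LPS replicate 3 lay just below LPS/siponimod replicates 1 and 2, so that the groups overlapped by this library. The log2 FC was -1.33 (SE 0.46, adjusted p = 0.0747, 95% interval -2.45 to -0.21) and pairs were at -1.70, -1.15 and -0.78. The blocked log2 FC of -1.21 was called lower (adjusted p = 0.0134), as was that without LPS replicate 3 (-1.68, adjusted p = 0.0180) and without both libraries numbered 3 (-1.45, adjusted p = 0.0359). Over all alternatives the adjusted p ranged from 0.0134 to 0.203.

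Ireb2 encodes the iron regulatory protein 2, which is controlled by its breakdown when iron is plentiful rather than by a cluster. It had 75.5, 77.7 and 82.3 CPM under LPS and 77.4, 74.4 and 69.7 CPM under LPS/siponimod. The groups overlapped, and the log2 FC was -0.09 (SE 0.10, adjusted p = 0.546) with a 95% interval from -0.34 to 0.16. A change of 1.5-fold lies outside this interval in both directions.

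In the fit with the replicate block, 1 of the 10 rows was called higher (Ftl1_2) and 5 were called lower (Tfrc, Slc11a2, Steap3, Lcn2 and Aco1), against 17.7% of all genes called higher and 16.4% lower in that fit. Without both libraries numbered 3, the same 5 genes were called lower and 0 rows higher, against 8.17% and 11.1% of the genes tested. In that fit Tfrc had a log2 FC of -2.20 (adjusted p = 0.0394) and Slc11a2 one of -0.74 (adjusted p = 0.0490). The uptake genes other than Slc11a1, and Aco1, were lower with siponimod in 3 of 3 pairs, and all ferritin rows tested were higher in 3 of 3 pairs. The share of all genes with the same direction in every pair was not computed. It is large, since 49.3% of genes tested had groups without overlap, which fixes the direction in each pair. Ftl1_2 stayed at 2.66 to 3.06% of Ftl1_1, so these rows may not be separate signals.

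**Figure D2:**
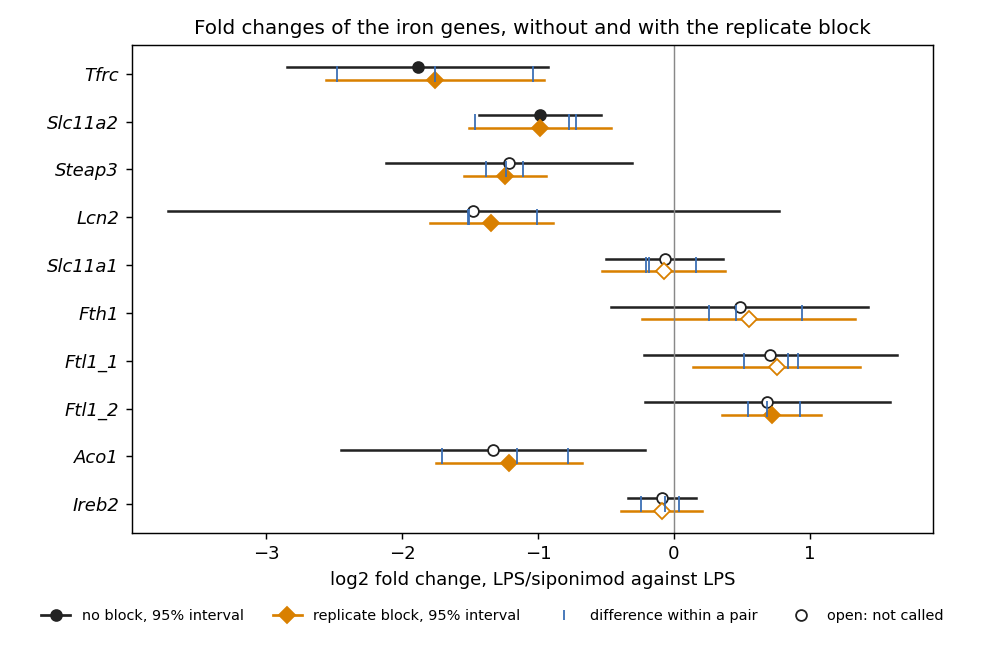
Log2 FC of the tested iron genes (LPS/siponimod against LPS) with 95% intervals, from the fit without a block (black circles) and with the replicate block (orange diamonds), filled where called, with blue ticks at the differences within the 3 pairs. Tfrc and Slc11a2 are filled in both fits, and the interval of Lcn2 narrows from -3.72 to 0.77 without the block to -1.80 to -0.89 with it.

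The wider pathway was described with 66 further genes of iron and heme handling (67 rows), of which 58 rows passed the filter on low counts. Of these, 7 were called higher (12.1%, against 13.6% of all genes) and 11 lower (19.0%, against 11.7%), with a median log2 FC of -0.26. The groups did not overlap in 29 of the 58 rows, close to the 49.3% of all genes. With few rows in each list below, its share called is not set apart from that of all genes.

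Other uptake genes gave 2 lower and 0 higher calls among 7 rows tested of 12, against 11.7% and 13.6% of all genes tested. Slc39a14 (ZIP14), a transporter of iron not bound to transferrin, fell from 22.8 ± 4.82 to 10.5 ± 1.07 CPM (log2 FC -1.12, SE 0.19, adjusted p = 0.0124), and this call was lost without LPS/siponimod replicate 1 (adjusted p = 0.0634) or 3 (adjusted p = 0.0526). Tfr2, a relative of Tfrc that acts in iron sensing in the liver, was called lower at few counts, with 15, 17 and 67 in LPS and 2, 7 and 2 in LPS/siponimod. Its log2 FC was -3.36 (SE 0.88, adjusted p = 0.0357), but -2.31 without LPS replicate 3 (adjusted p = 0.0504), and of the 6 fits that left out 1 library only that without LPS/siponimod replicate 2 kept the call (adjusted p = 0.0485). It was also lost with limma-voom (adjusted p = 0.0505), without a filter (adjusted p = 0.0537) and without both libraries numbered 3 (adjusted p = 0.0974). Transferrin itself, Tf, had a log2 FC of 0.08 (adjusted p = 0.781), and Slc22a17, the receptor of lipocalin 2, one of -0.55 (adjusted p = 0.110). Outside the rule for naming, Steap1 (blocked log2 FC 2.52, adjusted p = 0.00965), Steap4 (-3.44, adjusted p = 0.00967) and Slc39a8 (-0.79, adjusted p = 0.0494) were called with the block but not without it, and were chosen after their values were seen. Steap1 and Steap4 were also called by DESeq2 and by the likelihood ratio test, and Slc39a8 by neither.

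Storage and chaperone genes gave 1 lower and 0 higher calls among 6 rows tested of 7, against 11.7% and 13.6% of all genes. Ncoa4 is the receptor that delivers ferritin to lysosomes for iron release, and was listed as 2 numbered rows. Ncoa4_1 had 550.4, 490.3 and 296 CPM under LPS and 174, 264 and 140.1 CPM under LPS/siponimod. The lowest LPS library, replicate 3, was above the highest LPS/siponimod library, and Ncoa4_1 fell with a log2 FC of -1.21 (SE 0.33, adjusted p = 0.0388). This call was lost without LPS replicate 1 (adjusted p = 0.109) or 2 (adjusted p = 0.132) and without LPS/siponimod replicate 1 (adjusted p = 0.151) or 3 (adjusted p = 0.116), and also when no filter on low counts was applied (adjusted p = 0.0523). Ncoa4_2, with far fewer counts, had a log2 FC of -1.15 (adjusted p = 0.118) and was called lower with the block (-1.26, adjusted p = 0.0259). Fbxl5, part of the ligase that breaks down iron regulatory protein 2, was called higher with the block (blocked log2 FC 0.59, adjusted p = 0.0343) and by DESeq2, and was chosen after its values were seen.

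The oxidases that load exported iron onto transferrin moved in opposite directions. Cp (ceruloplasmin), the secreted or membrane-anchored oxidase, had 259, 232 and 148 CPM under LPS and 34.2, 70.1 and 24.6 CPM under LPS/siponimod. All LPS libraries were above all others, and Cp fell 4.96-fold, with a log2 FC of -2.31 (SE 0.44, adjusted p = 0.0160). Heph (hephaestin), its membrane-bound relative, had 82, 94 and 23 counts under LPS and 560, 895 and 371 under LPS/siponimod. No LPS library reached an LPS/siponimod library, and Heph rose 7.79-fold, with a log2 FC of 2.96 (SE 0.58, adjusted p = 0.0170), from a level that was low in LPS. Both calls were lost without LPS replicate 1, LPS replicate 2 or LPS/siponimod replicate 1, with adjusted p between 0.0506 and 0.0806 for Cp and between 0.0513 and 0.0644 for Heph. Without both libraries numbered 3 both were called (Cp -2.23, adjusted p = 0.0367, and Heph 2.79, adjusted p = 0.0295). Hamp, which encodes hepcidin, the hormone that triggers breakdown of ferroportin, had 3, 2 and 1 counts under LPS and 4, 0 and 4 under LPS/siponimod and was not tested.

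Among genes of heme uptake, export and breakdown, 1 was called lower and 0 higher of 11 rows tested of 12. The shares of all genes were 11.7% and 13.6%. Slc48a1, which carries heme from the lysosome to the cytosol, had 809, 570.2 and 642 CPM under LPS and 256, 371 and 297 CPM under LPS/siponimod. It fell with a log2 FC of -1.13 (SE 0.21, adjusted p = 0.0159), and the call was lost without LPS replicate 2 (adjusted p = 0.0526), without LPS/siponimod replicate 1 (adjusted p = 0.0755) or 3 (adjusted p = 0.0656), and without both libraries numbered 3 (adjusted p = 0.0618). Hmox1, the inducible heme oxygenase that frees iron from heme, was abundant, with 146198, 72118 and 114698 counts in LPS and 146918, 167100 and 177355 in LPS/siponimod. The groups overlapped after scaling, pairs went both ways, and the log2 FC was 0.33 (SE 0.32, adjusted p = 0.451, 95% interval -0.43 to 1.1). Abcg2 (blocked log2 FC -2.10, adjusted p = 0.0160), Blvra (-0.61, adjusted p = 0.0194) and Flvcr2 (1.56, adjusted p = 0.00702) were called with the block but not without it, and were chosen after their values were seen. Abcg2 and Flvcr2 were also called by DESeq2 and by the likelihood ratio test, and Blvra by neither.

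Mitochondrial genes of iron transport, iron-sulphur clusters and heme synthesis gave 4 higher and 6 lower calls among 27 rows tested of 27. These were 14.8% higher and 22.2% lower, against 13.6% and 11.7% of all genes. Ppox, an enzyme of the last steps of heme synthesis, had 41.8, 47.1 and 31.6 CPM under LPS and 9.43, 14.6 and 11.3 CPM under LPS/siponimod. It fell with a log2 FC of -1.77 (SE 0.23, adjusted p = 0.00733) and was called in all 6 fits that left out 1 library. Alas1, which catalyses the first and limiting step of that pathway, fell from 154 ± 20.2 to 70.03 ± 14.8 CPM (log2 FC -1.13, SE 0.19, adjusted p = 0.0120). Hspa9, the mitochondrial chaperone that takes part in cluster transfer, rose from 251 ± 41.9 to 626 ± 98.9 CPM (log2 FC 1.32, SE 0.20, adjusted p = 0.00960). The pair of mitochondrial iron importers differed in sign.

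Slc25a37 (mitoferrin 1) rose, with 17.2, 15.7 and 33.7 CPM in LPS and 102, 51.5 and 89.0 CPM in LPS/siponimod (log2 FC 1.86, SE 0.39, adjusted p = 0.0199). Slc25a28 (mitoferrin 2) fell, with 57.3, 53.8 and 55.2 CPM in LPS and 31.7, 41.4 and 31.9 CPM in LPS/siponimod (log2 FC -0.66, SE 0.14, adjusted p = 0.0199). Neither had overlapping groups, and a test of the difference between both genes was not made. Abcb10, a transporter of the inner mitochondrial membrane, rose with a log2 FC of 0.83 (SE 0.14, adjusted p = 0.0116). These calls were less firm than that of Ppox when 1 library was left out: Hspa9 was called in 5 of 6 such fits (lost without LPS replicate 2, adjusted p = 0.0515), Abcb10 in 4 (lost without LPS replicate 2, adjusted p = 0.0614, or LPS/siponimod replicate 1, adjusted p = 0.0563), and Alas1 in 3 (lost without LPS replicate 2 or LPS/siponimod replicate 1 or 3, with adjusted p up to 0.0635). Both mitoferrins were called in 2 of 6, without LPS replicate 3 or LPS/siponimod replicate 2, and otherwise reached adjusted p of up to 0.0805 (Slc25a37) and 0.0942 (Slc25a28). Without both libraries numbered 3, Slc25a28 was not called (adjusted p = 0.0739).

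Of 5 transcription factors of iron and heme genes and their partners, 2 were called higher and 0 lower. Among all genes the shares were 13.6% and 11.7%, and 5 rows are too few to set this list apart. Nfe2l2 (NRF2), which activates ferritin and heme oxygenase genes under oxidative stress, had 134, 103 and 109 CPM under LPS and 224, 178 and 181 CPM under LPS/siponimod (log2 FC 0.75, SE 0.16, adjusted p = 0.0223). Bach1, a heme-binding repressor of the same genes, had 72.7, 62.6 and 116 CPM under LPS and 230.2, 139 and 152 CPM under LPS/siponimod (log2 FC 1.05, SE 0.30, adjusted p = 0.0457). An activator and a repressor of ferritin and Hmox1 were thus both higher with siponimod, with no overlap between groups for either. The call of Nfe2l2 was lost without LPS replicate 2 (adjusted p = 0.0955), without LPS/siponimod replicate 1 (adjusted p = 0.0916) or 3 (adjusted p = 0.0630) and without both libraries numbered 3 (adjusted p = 0.0696). Bach1 kept its call among the 6 fits that left out 1 library only without LPS replicate 3 (adjusted p = 0.0194), the others reaching an adjusted p of up to 0.152, and lost it without a filter (adjusted p = 0.0564).

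**Figure D3:**
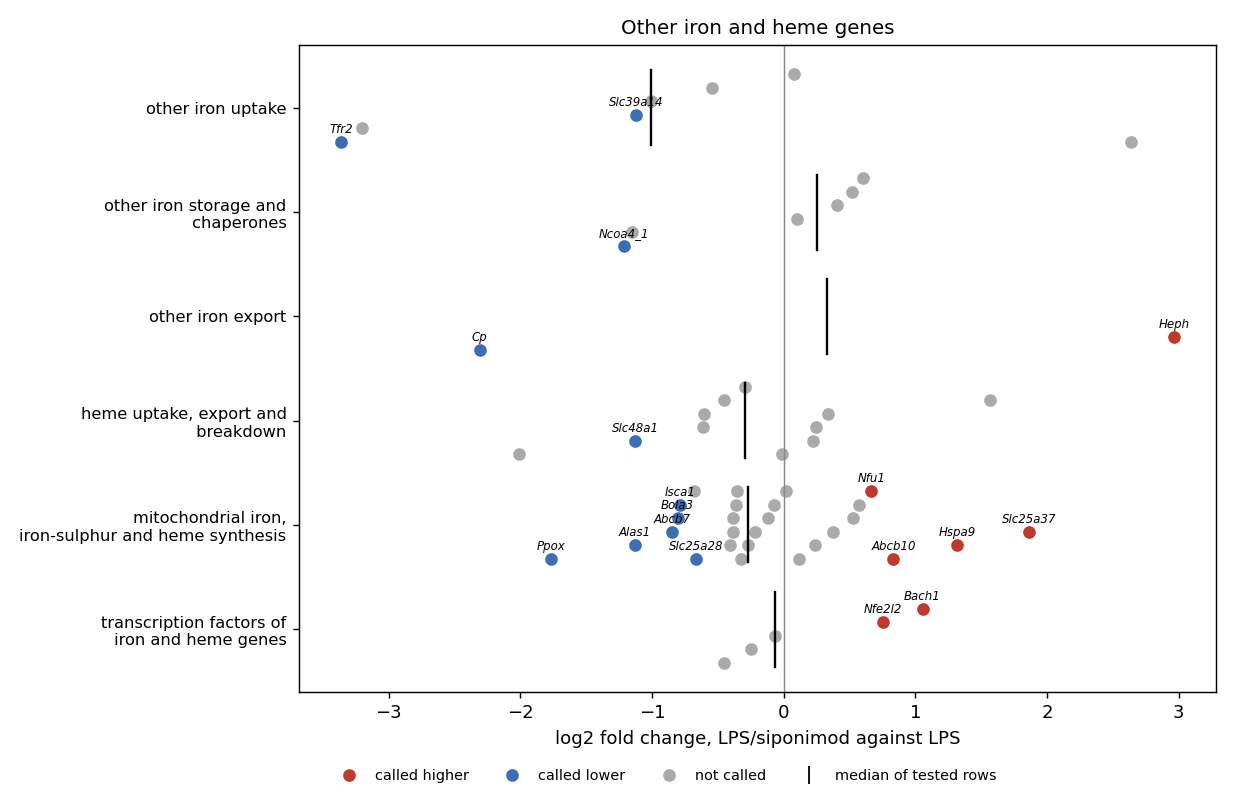
Log2 FC (LPS/siponimod against LPS) of the 58 tested rows of 66 further genes of iron and heme handling, by list, in red where called higher, blue where called lower and grey where not called, with a black bar at the median of each list. Cp at -2.31 and Heph at 2.96 lie at opposite ends of the export list, and the mitochondrial list holds 4 red and 6 blue points.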

How the data were processed

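Purified microglia in 6 samples (3 per condition) were sequenced as single-end messenger RNA libraries. The authors converted and demultiplexed reads with bcl2fastq (version 2.20.0.422, also in the submitters' processing notes), trimmed them and mapped them to the rat genome mRatBN7.2 in the CLC Genomics Workbench, and deposited total read counts per gene without normalization. Strand and the division of reads between similar genes are not stated in the sources used here, so that numbered rows of 1 symbol are uncertain. In the tables, 1 blank row without counts was left out.

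Depth was 38080379 to 46643859 counts per library. Precision beyond this depth is set by the replicates, which limit every comparison to 3 against 3.

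The software was edgeR 4.0.16, limma 3.58.1 and DESeq2 1.42.0 under R 4.3.3. A filter by filterByExpr (minimum count 10, minimum total 15) left 11977 genes, and TMM factors were 0.939 to 1.056. The test was glmQLFit with glmQLFTest on condition alone over all 6 libraries, Benjamini-Hochberg adjusted over all genes tested. An SE is the log2 FC divided by the square root of its F statistic. The study used another tool with the same thresholds. The procedure was tested on simulated data.

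After centring on group means, same-numbered libraries correlated over genes at 0.42, 0.545 and 0.611, and differently numbered ones at -0.534 to 0.0856. Numbers were taken as pairs, from these values and not from a statement in the sources. For differences within pairs, a prior count of 2 was added before taking log2 CPM.

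The genes named are all members, up to 3 called genes per direction and wider list with the smallest p, Hmox1, Ncoa4, Cp, Hamp, Slc22a17, Tf, Bach1 and Nfe2l2, each marker list's most abundant gene and those at 0, and rows with ferritin names. Members and lists were chosen with earlier results of these data known. Olig1, Mbp, Dcn, the called microglia markers and other genes so marked in the text were added after their values were seen.

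Alternatives were edgeR's RLE scaling, DESeq2, the likelihood ratio test of edgeR, limma-voom, testing without a filter, a mean of at least 1 CPM, the replicate block, no fold minimum, each library left out in turn and, added after seeing the data, both libraries numbered 3 left out. Protein sequences and identities were planned but not made. Promoter windows were read from RefSeq tables of build GRCr8. A result on 1 gene of the wider lists is not reported here.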

Additional observations from a re-analysis of the deposited data

How the results depend on the processing

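Both called members, Tfrc and Slc11a2, were called lower under every change of scaling, tool and filter and with the replicate block, and lost their calls only when single libraries were left out. Members called lower numbered 2 of 10, but 4 with DESeq2 and 4 with the likelihood ratio test (Steap3 and Aco1 in addition), where lower calls among all genes also increased, from 11.7% to 16.1% with DESeq2 and 14.5% with the likelihood ratio test. They numbered 5 with the replicate block, and 5 without both libraries numbered 3. Leaving out 1 library gave 0 to 4 lower calls, with 0 without LPS replicate 2, LPS/siponimod replicate 1 or LPS/siponimod replicate 3, where lower calls among all genes were also only 1.44%, 1.52% and 2.24%, and 4 without LPS replicate 3, where they were 14.5%. Members called higher numbered 0 throughout, except 1 with the replicate block. Among the other iron and heme genes, 7 were called higher (0 to 8 with 1 library left out, 10 with the replicate block and with DESeq2) and 11 lower (1 to 13 with 1 library left out, 17 with the replicate block, 15 with DESeq2). Among all genes tested, with 1 library left out, 3.72% to 15.9% were called higher and 1.44% to 14.5% lower, with the replicate block 17.7% and 16.4%, and with DESeq2 16.5% and 16.1%. The replicate block changed no other call among the members than those given in the text. The log2 ratio of Fth1 to Ftl1_1 counts differed by -0.20 (LPS/siponimod minus LPS), ranged from -0.40 to 0.025 with 1 library left out, reversed to 0.025 without LPS replicate 3, and was -0.20 with the replicate block. Over 28 named rows and their 391 alternative fits, 319 left the call as it was, 57 lost it, 15 gained one and 0 reversed a called direction.

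Over all genes, 3036 were called, 651 to 3713 with 1 library left out, 4074 with the replicate block and 2318 without both libraries numbered 3. Fits that leave 2 libraries in a group take the spread from the other group as well. The common biological coefficient of variation was 0.355, and Fth1, with at least 464202 counts in every library, was not called. Ftl1_3 and Hamp had too few counts to be tested at this depth. Whether pairs shared a cell preparation is not given in the sources used here.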
